A study of Mus musculus with 9 samples.

Results

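The clustered replication-dependent histone genes were examined in RAW264.7 cells, a mouse monocyte-macrophage line. Members were the protein-coding genes of GENCODE M21 whose symbol begins with Hist1h, Hist2h, Hist3h or Hist4h. This rule gave 67 genes, of which 58 were listed among the 28137 genes with deposited values. The listed members were 5 H1, 14 H2A, 16 H2B, 10 H3 and 13 H4 genes, with 51 in the Hist1 cluster on chromosome 13, 4 in Hist2 on chromosome 3, 2 in Hist3 on chromosome 11 and Hist4h4 alone on chromosome 6. The other 9 were not analysed here, namely Hist1h1t, Hist1h2aa, Hist1h2ba, Hist2h2aa1, Hist2h2aa2, Hist2h2ab, Hist2h2bb, Hist2h3b and Hist2h3c1. Hist1h1t, Hist1h2aa and Hist1h2ba are known as testis histone genes.

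The study asked how SFRP2, a secreted modulator of Wnt signaling, affects inflammatory macrophages. RNA was sequenced from 9 libraries in 3 groups of 3, which the labels give as NC siRNA, SFRP2 siRNA and RAB6A siRNA. Per the labels, all 9 cultures received 60 nM siRNA for 6 hours, then complete medium for 12 hours and 100 ng/ml lipopolysaccharide for 24 hours, so the NC siRNA cells were also transfected and stimulated. The methods of the study give another siRNA dose and medium and add interferon gamma, and the titles number the SFRP2 siRNA group as siRNA-1 to siRNA-3. The study also lists 3 SFRP2 siRNA sequences with those names, so each library could stand for a different sequence, which the sources used here do not say. The labels do not say that the 3 libraries of a group came from separate cultures, so p-values measure the spread between these libraries, which may be technical.

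Replication-dependent histone genes supply the core histones H2A, H2B, H3 and H4 and the linker histone H1 that package newly made DNA. Their transcription rises as cells enter S phase, through NPAT at nuclear bodies that sit on the gene clusters. Their mRNAs are the metazoan mRNAs that normally end without a poly(A) tail. The end is made by a cut behind a short stem-loop, which the stem-loop binding protein SLBP holds, with the help of the U7 small nuclear RNA. In cells that leave the cycle, some of these genes also give polyadenylated transcripts, which run past the stem-loop. The libraries were made with an mRNA-seq kit, and the labels do not say how mRNA was selected.

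The stem-loop is shown because it is the element that sets most members apart from other mRNAs. It was searched as a stem of 6 paired bases from GG to CC around a loop of 4 bases, after the stop codon of GENCODE M21 transcripts. It was found in 46 of 67 members, 21 to 58 bases behind the stop codon. The stem and loop are in capitals, with 5 bases on each side, written 5′ to 3′ as DNA of the coding strand.
Hist1h1c: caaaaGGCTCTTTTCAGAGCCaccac
Hist2h3c2: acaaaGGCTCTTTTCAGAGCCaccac
Hist1h2bg: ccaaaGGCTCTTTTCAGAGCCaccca
Hist1h3g: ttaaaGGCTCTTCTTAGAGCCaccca
Hist1h4n: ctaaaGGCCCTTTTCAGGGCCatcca
Hist1h4i: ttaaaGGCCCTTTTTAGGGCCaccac
These windows lie, on GRCm38, at chr13:23739507-23739532 (plus strand), chr3:96238480-96238505 (minus), chr13:23571838-23571863 (plus), chr13:23535884-23535909 (plus), chr13:21831793-21831818 (minus) and chr13:22040961-22040986 (minus), in that order. All 6 are in the 3′ untranslated part of a single-exon transcript.

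The 46 stem-loops had 8 different 16-base sequences. The form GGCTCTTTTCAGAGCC was found in 26 members, and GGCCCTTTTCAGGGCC in 7. Among transcripts with at least 100 bases after the stop codon, 26 of 31 members held a stem-loop in the first 100 bases, against 57 of 20139 other protein-coding genes (0.283%). A missing match says only that these letters are not in this window. The annotated transcripts of 13 members end at the stop codon. No match was found in those of Hist1h2bc (742 bases after the stop codon, 2 exons) and Hist2h2be (2192 bases). The same holds for Hist1h2bq (1608 bases, 3 exons) and Hist1h2br (1803 bases, 3 exons). Those of Hist1h1a, Hist2h3b, Hist1h2ah and Hist1h2af, with 48, 37, 2 and 1 bases after the stop codon, held no match either. In 18 members the annotated transcript runs over 200 bases past the loop. For Hist1h1c this stretch is 840 bases, with the poly(A) letters AATAAA in the last 50. For Hist1h4i it is 330 bases, with ATTAAA there.

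Promoters are shown for 4 members with higher values in the RAB6A siRNA libraries, of which Hist1h1c and Hist1h1e are linker histone genes. RefSeq promoters (GRCm38.p6) were matched for 62 of 67 members, not for Hist1h2bc, Hist2h2be, Hist2h4, Hist1h3a and Hist1h3f. The 150 bases before the start were searched on both strands for the CCAAT box, the TATA box letters TATAAA, the octamer (ATTTGCAT) bound by POU factors, and the H1 box with its letters AAACACA. Matches may share end letters. Matches are in capitals.
Hist1h1c: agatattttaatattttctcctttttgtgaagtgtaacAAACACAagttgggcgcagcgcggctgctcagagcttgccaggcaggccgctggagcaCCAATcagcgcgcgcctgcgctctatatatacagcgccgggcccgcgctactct
Hist1h1e: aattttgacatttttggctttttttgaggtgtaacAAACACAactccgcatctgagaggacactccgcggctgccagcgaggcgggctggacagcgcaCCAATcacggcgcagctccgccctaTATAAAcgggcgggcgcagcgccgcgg
Hist1h2bg: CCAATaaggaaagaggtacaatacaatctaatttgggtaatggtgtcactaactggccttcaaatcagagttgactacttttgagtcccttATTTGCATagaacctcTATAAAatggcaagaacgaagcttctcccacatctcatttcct
Hist1h4n: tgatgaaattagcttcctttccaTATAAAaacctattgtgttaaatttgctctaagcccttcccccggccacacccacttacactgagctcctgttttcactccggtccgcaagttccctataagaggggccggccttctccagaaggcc
They lie at chr13:23738657-23738806 (plus), chr13:23622559-23622708 (minus), chr13:23571250-23571399 (plus) and chr13:21832198-21832347 (minus). The H1 box began at -112 in Hist1h1c and at -115 in Hist1h1e. It was found in 5 of 6 H1 promoters, in 8 of 62 member promoters and in 3.48% of 26963 other promoters. CCAAT was found in 51 of 62 (other promoters 25.1%), with all 18 H2A and all 16 H2B promoters among them and 3 of 12 H4 promoters. TATAAA was found in 24 of 62 (other promoters 8.01%). The octamer was found in 10 of 62, 5 of H2A and 5 of H2B genes (other promoters 0.990%). These matches are a description of letters.

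The deposited unit is FPKM, a level per length of gene in which library size is divided out. Whole reads recovered from the FPKM steps gave 32758726 to 47149271 reads per library. Rab6a had 24.3, 27.3 and 25.5 FPKM in the NC siRNA libraries and 21.2, 20.7 and 20.4 in the RAB6A siRNA libraries, a log2 fold change of -0.31 (SE 0.06, adjusted p = 0.00240, limma). Sfrp2 had only 2 reads in each NC siRNA library and 4, 4 and 2 in the libraries labeled SFRP2 siRNA, so it does not check that label. The 10 macrophage markers summed to 4069 to 5219 FPKM and the 10 listed markers of other cell types to 1.81 to 3.33. In RAB6A siRNA against NC siRNA 2 macrophage markers rose (Fcgr3 and Ptprc, 20%, all genes 37.6%). Another 4 fell (Lyz2, Csf1r, Mpeg1 and Spi1, 40%, all genes 36.5%), a share near that of all genes. At an absolute log2 fold change over 1 as well, these 4 were still called lower (40%), above the 12.8% of all genes. At that threshold 0 were called higher (all genes 17.3%).

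Levels of the histone genes were low and uneven. In each library, Hist1h1c, Hist1h2bc, Hist1h4i and Hist2h2be, the highest 4 by the mean over 9 libraries, held 72.8% to 83.1% of the FPKM summed over the 58 members. Each of the other 54 had at most 51 reads in any library, and 31 members stayed under 10 reads in every library. Of the 58, 16 had reads in all 9 libraries. In 28 of the 67 members over 50 percent of the 100-base windows also occur in another gene, so reads of near-identical copies are uncertain. At such levels, single reads move the values, and an absent read does not show an absent transcript. In bulk RNA, fewer cells of a type and less RNA per cell cannot be told apart.

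**Figure D1:**
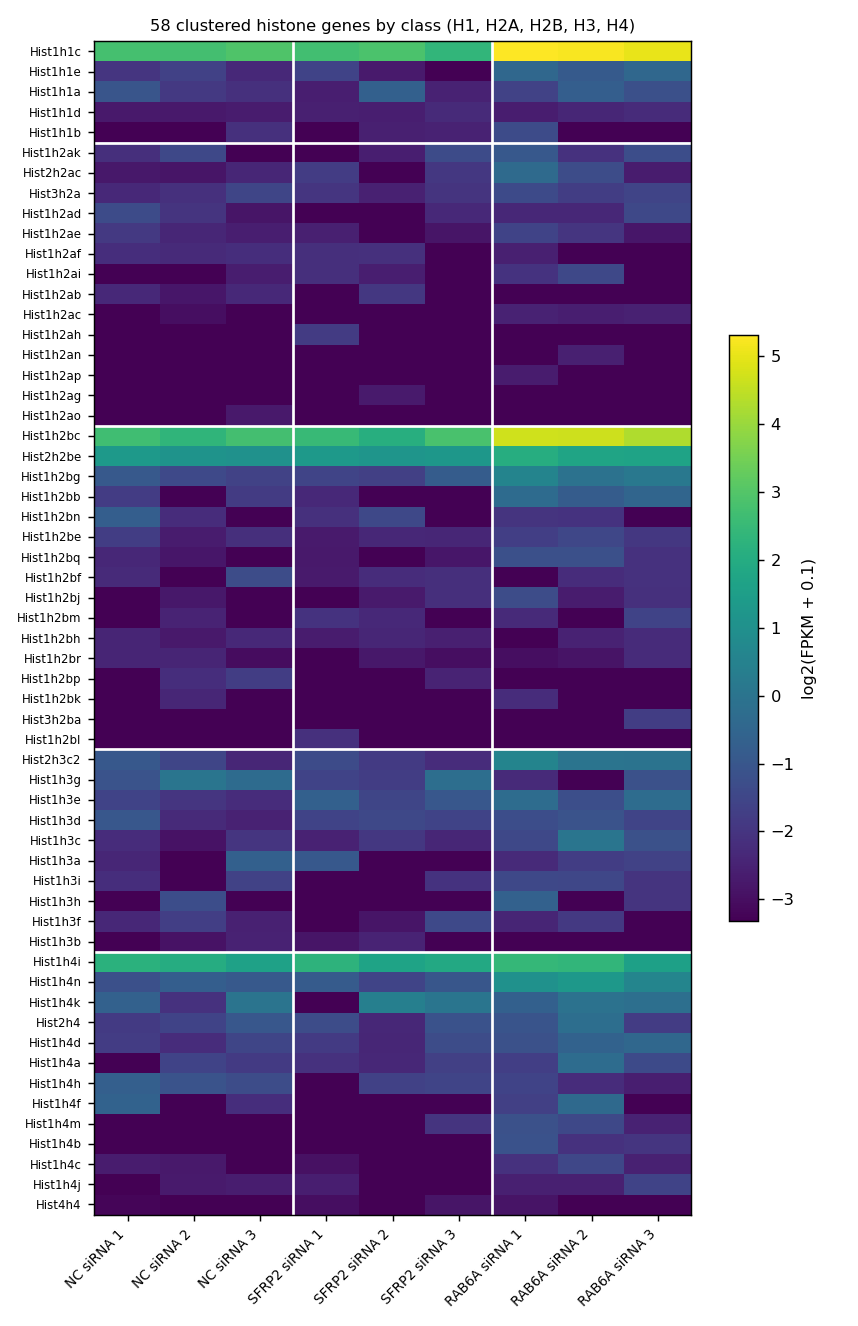
Heat map of log2(FPKM + 0.1) for the 58 listed histone genes (rows, by class and by mean level) in the 9 libraries (columns). Hist1h1c, Hist1h2bc, Hist1h4i and Hist2h2be stand out in every library, and Hist1h1c and Hist1h2bc are brightest in the 3 RAB6A siRNA libraries.

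RAB6A siRNA was compared with NC siRNA first. FPKM summed over the 58 members was 25.7 ± 2.00 (SD, n = 3) in NC siRNA, 23.6 ± 1.44 in SFRP2 siRNA and 81.6 ± 10.4 in RAB6A siRNA. The range was 23.4 to 27.3 in NC siRNA and 69.9 to 89.9 in RAB6A siRNA, so these groups did not overlap. Most of the difference came from Hist1h1c and Hist1h2bc. The other 54 members together had 6.81 ± 0.781 FPKM in NC siRNA and 13.8 ± 1.76 in RAB6A siRNA. Of the 8 members with a mean of at least 0.5 FPKM over the 6 libraries, 6 were higher at an adjusted p under 0.05 and 0 were lower (limma on log2(FPKM + 0.1)), against 37.6% of all 12712 genes tested called higher and 36.5% called lower. At an absolute log2 fold change over 1 as well, 5 of the 8 were higher (all genes 17.3%) and 0 were lower (all genes 12.8%). The count of 5 was 3 with GC content and length corrected, 3 with a pseudocount of 1 and 4 with quantile normalization. Hist1h4n, Hist1h2bg and Hist2h3c2 were under 0.5 FPKM in NC siRNA and passed the filter through the RAB6A siRNA libraries. Hist1h3g was above 0.5 FPKM in NC siRNA (0.664 ± 0.282) but was left out by the filter through its low RAB6A siRNA values (0.150 ± 0.177). The counts of 6 higher and 0 lower therefore do not describe the family. On the same 8 members, the limma voom test of the recovered reads called 6 higher. Over all genes it called 4667 higher and 4624 lower of 12275.

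Hist1h1c encodes a linker histone, which binds DNA where it enters and leaves the nucleosome. It had 6.72, 6.59 and 7.599 FPKM in NC siRNA, 6.37, 7.15 and 5.06 in SFRP2 siRNA and 39.6, 37.0 and 32.4 in RAB6A siRNA. The 3 RAB6A siRNA libraries were all above the other 6, with 1657 to 2245 reads in each against 436 to 504 in NC siRNA. The log2 fold change against NC siRNA was 2.36 (SE 0.09, adjusted p = 1.54e-06, limma), a ratio of means of 5.22. Only 5.07% of its 100-base windows occur in another gene, so few of its reads could belong elsewhere.

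Hist1h2bc encodes a core histone H2B. It had 6.28, 4.86 and 6.61 FPKM in NC siRNA, 5.57, 4.18 and 7.05 in SFRP2 siRNA and 25.8, 25.3 and 19.6 in RAB6A siRNA, again with no overlap. Its log2 fold change was 1.98 (SE 0.15, adjusted p = 1.51e-05, limma). Of its 100-base windows, 25.3% occur in other genes, all of them members.

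Hist2h2be, an H2B gene of the Hist2 cluster, rose less. It had 2.39, 2.06 and 1.98 FPKM in NC siRNA and 4.11, 3.21 and 3.13 in RAB6A siRNA, so that the groups did not overlap. The log2 fold change was 0.67 (SE 0.13, adjusted p = 0.00219, limma). None of its windows is shared with another gene.

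Hist1h4i, an H4 gene, was the exception among the 4 highest. It had 4.496, 3.997 and 2.98 FPKM in NC siRNA, 4.65, 3.11 and 3.64 in SFRP2 siRNA and 5.22, 5.05 and 2.90 in RAB6A siRNA. The groups overlapped, with the third RAB6A siRNA library below every NC siRNA library. The log2 fold change was 0.17 (SE 0.24, adjusted p = 0.552, limma), and corrected for GC content and length it was -0.37 (adjusted p = 0.175). Without the third RAB6A siRNA library it was 0.44 (adjusted p = 0.0544).

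The other 4 tested members had few reads. Hist1h4n, an H4 gene, had 0.335, 0.493 and 0.438 FPKM (6, 10 and 8 reads) in NC siRNA and 1.98, 2.34 and 1.42 in RAB6A siRNA, a log2 fold change of 1.93 (SE 0.23, adjusted p = 1.56e-04). Hist2h3c2, an H3 gene, had 0.424, 0.250 and 0.0922 FPKM (18, 12 and 4 reads) and 1.38, 0.907 and 0.868, a log2 fold change of 1.78 (SE 0.41, adjusted p = 0.00492). Hist1h2bg, an H2B gene, had 0.428, 0.275 and 0.228 FPKM and 1.38, 0.855 and 0.988, a log2 fold change of 1.52 (SE 0.28, adjusted p = 0.00184). For these 3 the RAB6A siRNA libraries were all above the NC siRNA libraries. Much of each sequence also occurs in other genes, with 80.7% of the 100-base windows of Hist1h4n, 61.6% of Hist2h3c2 and 44.9% of Hist1h2bg, so reads may be split between copies. Hist1h4k, an H4 gene, ranged from 0.136 to 0.905 FPKM in NC siRNA and from 0.529 to 0.847 in RAB6A siRNA, with full overlap (log2 fold change 0.60, SE 0.52, adjusted p = 0.323). The sign of this value turned with GC content and length corrected (-0.53, adjusted p = 0.369) and with quantile normalization (-0.03, adjusted p = 0.962).

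**Figure D2:**
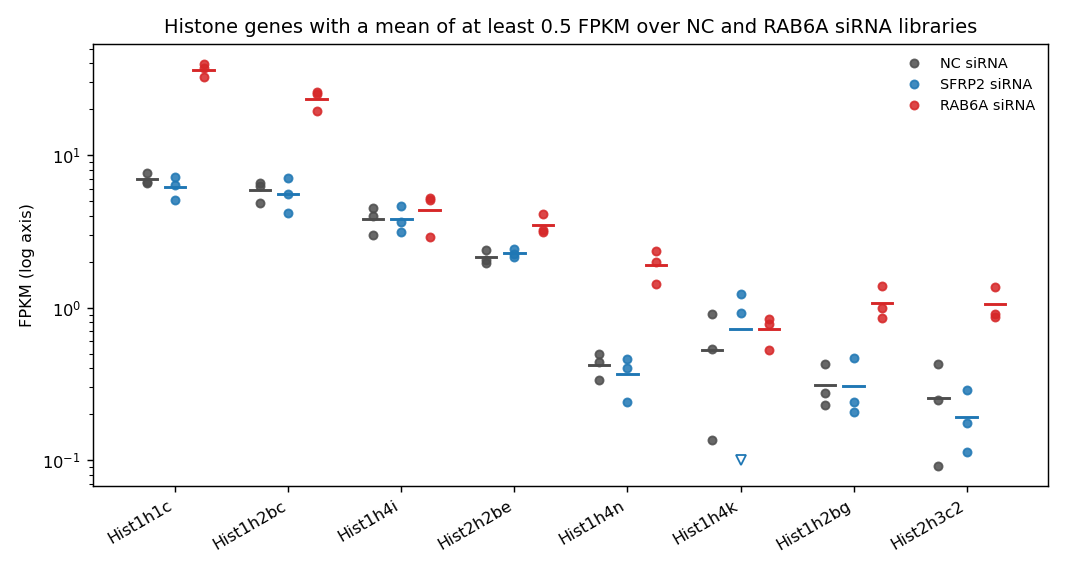
FPKM (log axis) of the 8 histone genes with a mean of at least 0.5 FPKM over the NC and RAB6A siRNA libraries. Each point is 1 library, lines are means of 3, and the open triangle marks a library at 0. For Hist1h1c, Hist1h2bc, Hist2h2be, Hist1h4n, Hist1h2bg and Hist2h3c2 all RAB6A siRNA points lie above all NC siRNA points, and for Hist1h4i and Hist1h4k they overlap.

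With no filter, 55 members had a read in these 6 libraries. Of these, 15 were higher at an adjusted p under 0.05 (27.3%, all genes 21.7%) and 3 lower (5.45%, all genes 18.7%). All 3 RAB6A siRNA libraries were above all NC siRNA libraries for 19 members (34.5%, all genes 26.9%) and below them for 4 (7.27%, all genes 22.5%). The higher shares were thus near the background, and the lower shares were under it. For genes under the filter the exact permutation test cannot go below p = 0.1 with 3 libraries against 3, so none of them can pass 0.05 there.

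Among the linker histone genes, Hist1h1e had 12, 20 and 8 reads in NC siRNA and 45, 32 and 40 in RAB6A siRNA (0.156 ± 0.0614 and 0.571 ± 0.115 FPKM, exact p = 0.1). Its annotation overlaps Hist1h2be and Gm11398, whose reads may not be told apart. Hist1h1a overlapped (0.229 ± 0.140 and 0.351 ± 0.140 FPKM, exact p = 0.4). H1 FPKM without Hist1h1c summed to 0.480 ± 0.0968 in NC siRNA and 1.11 ± 0.103 in RAB6A siRNA. Most of the difference between these sums was that of Hist1h1e.

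The H2A genes were the lowest class. All 14 together had 0.863 ± 0.0900 FPKM in NC siRNA and 1.45 ± 0.554 in RAB6A siRNA, and the ranges of 0.777 to 0.956 and 0.995 to 2.06 nearly touched. The highest 3, Hist1h2ak, Hist2h2ac and Hist3h2a, had 0.131 ± 0.135, 0.0592 ± 0.0273 and 0.160 ± 0.0806 FPKM in NC siRNA and 0.288 ± 0.144, 0.350 ± 0.317 and 0.240 ± 0.0425 in RAB6A siRNA, with exact p of 0.2, 0.2 and 0.3 and overlap in each. Their annotations overlap those of Gm44454, of Gm44492, and of Gm44313 and Trim17, in that order.

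The H3 genes went both ways. Hist1h3e had 8, 6 and 4 reads in NC siRNA, 18, 8 and 12 in SFRP2 siRNA and 22, 10 and 20 in RAB6A siRNA (0.165 ± 0.0597, 0.397 ± 0.143 and 0.590 ± 0.237 FPKM). Hist1h3g had 8, 23 and 16 reads in NC siRNA, 5, 4 and 14 in SFRP2 siRNA and 2, 0 and 6 in RAB6A siRNA (0.664 ± 0.282, 0.396 ± 0.316 and 0.150 ± 0.177 FPKM). Each had an exact p of 0.1 for RAB6A siRNA against NC siRNA, in opposite directions. Hist1h3g was 1 of 4 members whose RAB6A siRNA libraries were all below NC siRNA, and the other 3, named after their values were seen, were Hist1h4h (10, 8 and 6 against 4, 2 and 1 reads), Hist1h2af (2 in each against 1, 0 and 0) and Hist1h2ab (2, 1 and 2 against 0 in each). Without the filter Hist1h4h, Hist1h2af and Hist1h2ab were the 3 called lower, and Hist1h3g had an adjusted p of 0.0520.

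Summed by class, H2B had 9.33 ± 1.29 FPKM in NC siRNA and 29.8 ± 3.93 in RAB6A siRNA, H3 had 1.96 ± 0.111 and 3.32 ± 0.393, and H4 had 6.06 ± 0.704 and 9.56 ± 2.53. H2B and H3 did not overlap between these groups. H4 did, with 5.63 to 6.87 against 6.82 to 11.8. Without Hist1h4i the remaining 12 H4 genes had 1.68 to 2.65 FPKM in NC siRNA and 3.92 to 6.77 in RAB6A siRNA. By cluster, Hist1 had 22.8 ± 1.80 and 76.0 ± 9.48 FPKM and Hist2 had 2.72 ± 0.266 and 5.33 ± 1.15, without overlap, whereas the 2 Hist3 genes overlapped (0.101 to 0.252 and 0.197 to 0.441) and Hist4h4 was at most 0.0402 FPKM in any library.

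The members were also set out by their annotated ends. All genes with a read give 26.9% above and 22.5% below as the background for the following counts. In the 16 members whose transcript runs over 500 bases past the stop codon, 9 had RAB6A siRNA libraries all above (56.2%) and 0 all below NC siRNA. In the 10 that run 100 to 500 bases, 5 were above (50%) and 0 below. In the 32 that end within 100 bases, 5 were above (15.6%) and 4 below (12.5%), both under the background. The 32 include Hist1h2ah, Hist1h2bl and Hist1h2ag, which had no read in these libraries and could be neither above nor below, unlike the genes of the background. The highest 4 members were all among those with at least 100 bases. Reads per gene grow with the annotated length, so the shorter members had fewer reads behind these counts. Ends of transcripts were not measured.

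**Figure D3:**
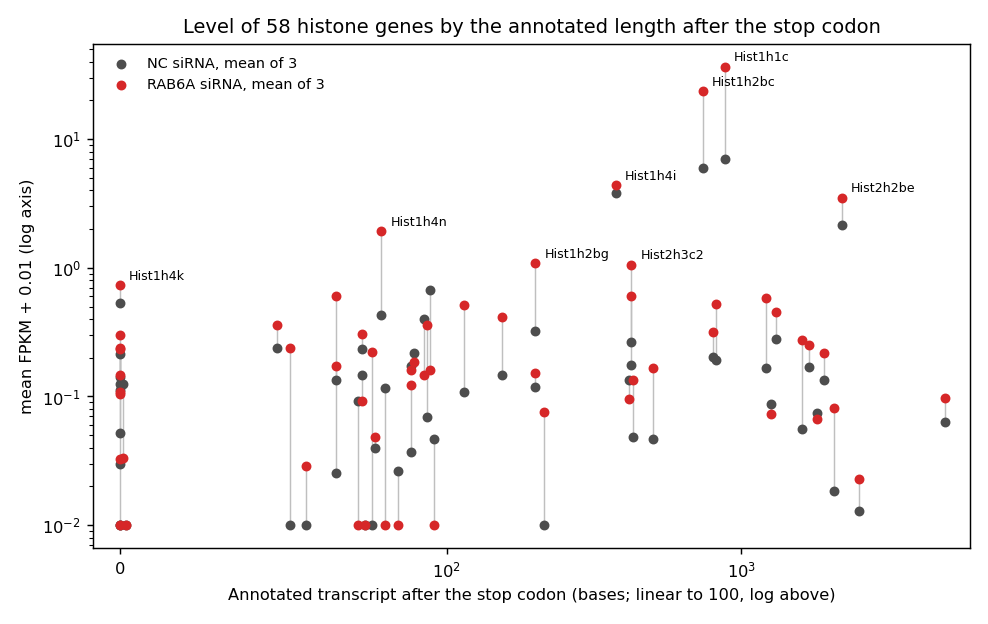
Mean FPKM + 0.01 (log axis) of the 58 histone genes in NC siRNA and RAB6A siRNA (n = 3 each) by the bases annotated after the stop codon. Gray lines join the means of a gene, points at the bottom are at 0, and the 8 tested genes are named. Hist1h1c, Hist1h2bc, Hist1h4i and Hist2h2be all lie beyond 100 bases.

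Other RNAs known to lack a poly(A) tail moved with these values. Reads on the 453 listed snRNA, snoRNA and scaRNA genes numbered 2410 to 2477 per library in NC siRNA, 1998 to 2631 in SFRP2 siRNA and 5132 to 6310 in RAB6A siRNA, and their summed FPKM was 428 to 497, 480 to 536 and 1214 to 1417. Of 190 such genes past the filter, 102 were higher in RAB6A siRNA (53.7%, all genes 37.6%) and 12 lower (6.32%, all genes 36.5%), with a median log2 fold change of 1.57. In SFRP2 siRNA against NC siRNA only 146 passed the filter. Some of the 190 may thus have passed through the RAB6A siRNA libraries where they are high, which raises this share and median. The summed reads and FPKM do not depend on the filter. Of the 9 other non-coding RNAs listed as lacking a poly(A) tail, only Rny1 had values, with a mean of 0.280 FPKM or less in each group. Fold changes also fell with exon length across the 12535 named genes tested (Spearman rho -0.214, across genes, which are not independent replicates), and the 8 tested members were short, with a median exon length of 873.5 bases against 3711. Corrected for GC content and length, the median of the 8 went from 1.65 to 0.94. The part of these RNAs and of length in the histone values was not tested further.

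Factors of histone mRNA, a list that runs from transcription and processing to decay, mostly fell. Eri1 and Lsm1, which act in decay, fell by 0.62 and 0.64 on the log2 scale and are counted with the rest. Of 26 listed, 24 passed the filter, and in RAB6A siRNA 6 rose (25%, all genes 37.6%) and 14 fell (58.3%, all genes 36.5%), with a median log2 fold change of -0.36 (all genes 0.03). Slbp, which holds the stem-loop, fell from 5.12 ± 0.464 to 2.99 ± 0.117 FPKM (log2 fold change -0.75, adjusted p = 1.56e-04, limma). Casp8ap2, a partner of NPAT, fell by 1.24 on the log2 scale, and Coil, the scaffold of Cajal bodies, and Srrt, which links the cap to RNA processing, fell by 1.54 and 1.53. Lsm10, a U7 particle subunit, fell by 0.36. Its partner Lsm11 rose by 0.79, Hinfp, an activator of H4 genes, by 0.97, Mif4gd, which joins SLBP to translation, by 0.77, and Npat by 0.32. Zfp473 was under the filter (0.204 ± 0.0435 FPKM in NC siRNA and 0.141 ± 0.0420 in RAB6A siRNA). Lsm11 was under 0.5 FPKM in NC siRNA (mean 0.472) and passed the filter through the RAB6A siRNA libraries (mean 0.899). Mblac1, named after its values were seen, had 0.791 ± 0.151 FPKM in NC siRNA and 0.133 ± 0.0967 in RAB6A siRNA. It was left out by the filter, so the counts of this list depend on the filter.

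S-phase genes fell nearly throughout. Of 38, all past the filter, 36 fell (94.7%, all genes 36.5%) and 2 rose (5.26%, all genes 37.6%), with a median of -1.15. Cyclin genes Ccne2 and Ccna2 fell by 2.99 and 2.35 on the log2 scale, and the replication factor Mcm10 by 2.12. Gins3 rose by 0.89 and Cdk2 by 0.34. Slbp and Mcm2 are on this list and on another. The histone genes that rose thus did so in libraries where transcripts of DNA replication genes were lower.

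Histone chaperones, which carry histones to DNA, fell in 17 of 21 (81.0%, all genes 36.5%) and rose in 0 (all genes 37.6%), with a median of -0.73. Asf1b and Supt16 both fell by 1.85 on the log2 scale and Nasp, which binds soluble H3 and H4, by 1.83. The replication-independent histone genes, which are transcribed outside S phase too, were mixed, with 6 of 9 higher (66.7%, all genes 37.6%) and 2 lower (22.2%, all genes 36.5%) and a median of 0.63. H2afj rose from 10.3 ± 1.43 to 48.1 ± 14.1 FPKM (log2 fold change 2.17), H3f3b, an H3.3 gene, by 1.14, and Cenpa, the centromeric H3, by 1.10. H2afx, known from DNA damage and for giving both a stem-loop and a polyadenylated mRNA, fell from 30.2 ± 1.62 to 8.49 ± 0.271 FPKM, and H2afz, which encodes H2A.Z, from 129 ± 6.91 to 57.97 ± 7.46. Among the 10 listed markers of other cell types, only 2 passed the filter, with 1 called higher (50%, all genes 37.6%) and 0 lower. Col1a2 rose from 0.310 ± 0.0815 to 0.825 ± 0.184 FPKM and passed the filter through the RAB6A siRNA libraries. The summed level of the 10 listed markers was 1.81 to 2.91 FPKM in NC siRNA and 2.16 to 3.33 in RAB6A siRNA. In each RAB6A siRNA library 2 of the 10 were at 0. The part of other cell types was not tested.

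**Figure D4:**
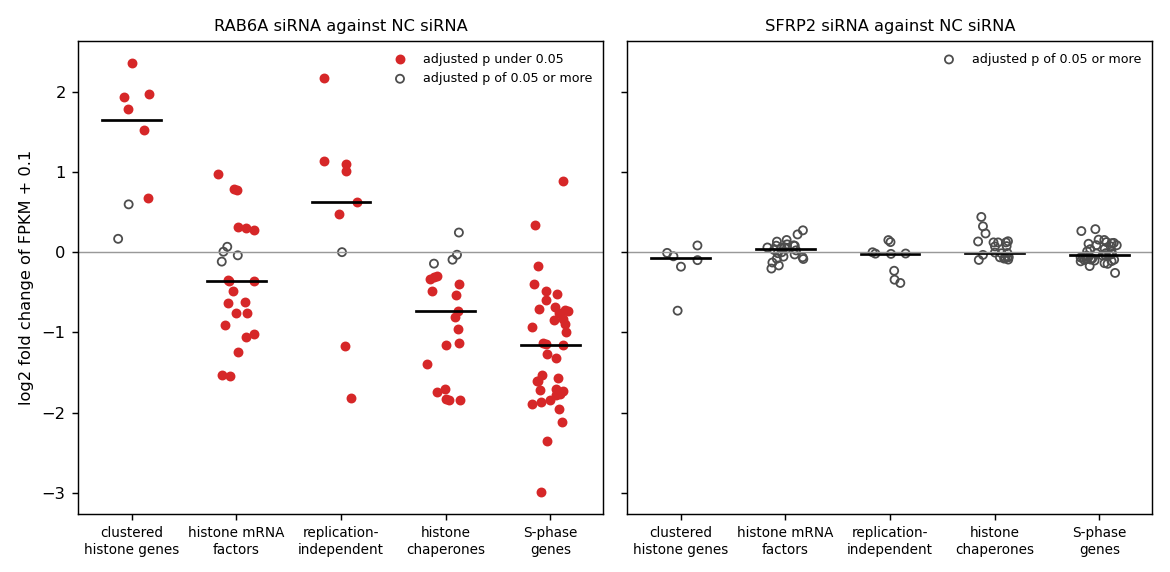
log2 fold change of FPKM + 0.1 for genes past the filter among the clustered histone genes and the 4 related lists, against NC siRNA. Points are genes and black lines medians. In RAB6A siRNA the 8 histone genes past the filter lie above 0 and 36 of 38 S-phase genes below. Hist1h4n, Hist1h2bg and Hist2h3c2 passed the filter through the RAB6A siRNA libraries, and Hist1h3g, lower in RAB6A siRNA, was left out through them. With no filter, 43 of 55 histone genes were above 0 and 12 below. In SFRP2 siRNA no gene of these lists had an adjusted p under 0.05.

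The libraries labeled SFRP2 siRNA were compared with the same NC siRNA libraries. Of 6 members past the filter, 0 were called at an adjusted p under 0.05 (limma), as were 0% of all 12017 genes tested. At an unadjusted p under 0.05 the count of members was 0 of 6, against 18.5% of all genes, and voom also called 0 members, with 7 genes higher and 33 lower of 11647. Fold changes in this comparison fell with GC content across the 11903 named genes tested (Spearman rho -0.482, across genes, which are not independent replicates). The 58 listed members had a median GC content of 57.5%. The part of GC content in the 18.5% was not tested. The smallest p were those of Hist1h3g (log2 fold change -0.73, SE 0.50, adjusted p = 0.453) and Hist1h1c (-0.18, SE 0.13, adjusted p = 0.467). Hist1h2bc had -0.10 (SE 0.20), Hist1h4i -0.01 (SE 0.19), Hist2h2be 0.09 (SE 0.10) and Hist1h4k -0.05 (SE 1.04). The last of these could not be placed, with 0 reads in the first SFRP2 siRNA library and 15 and 10 in the others.

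Without the filter, 54 members had a read. SFRP2 siRNA libraries were all above NC siRNA for 2 members, Hist1h3e and Hist1h1d (3.70%, all genes 7.32%), and all below for Hist1h4h alone (1.85%, all genes 7.82%), the last 2 named after their values were seen. All 3 were under the filter, with an exact p of 0.1. In the lists of histone mRNA factors, replication-independent histone genes, chaperones and S-phase genes, 0 genes were called (limma). An unadjusted p under 0.05 was reached by 4 of 24 (16.7%), 3 of 9 (33.3%), 4 of 21 (19.0%) and 7 of 38 (18.4%), beside 18.5% of all genes.

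Set against the libraries labeled SFRP2 siRNA, RAB6A siRNA was higher in 6 of 8 members past the filter and lower in 0, with 37.6% of all 12764 genes called higher and 35.8% lower. This comparison uses the same RAB6A siRNA libraries as the first, so the counts are not independent. Hist1h4n, Hist1h2bg and Hist2h3c2 were under 0.5 FPKM in SFRP2 siRNA and again passed the filter through the RAB6A siRNA libraries, so the count does not describe the family. Hist1h1c had a log2 fold change of 2.54 (SE 0.14, adjusted p = 6.40e-06, limma) and Hist1h2bc of 2.07 (SE 0.19, adjusted p = 6.79e-05). Hist1h4n had 2.11, Hist2h3c2 1.99, Hist1h2bg 1.57 and Hist2h2be 0.59. Hist1h4i (0.18, SE 0.25) and Hist1h4k (0.65, SE 0.93) were not called.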

How the data were processed

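RNA-seq of 9 RAW264.7 libraries was analysed, 3 per label. The values that the authors deposited are FPKM, given by Ensembl identifier for each library. The submitters' processing notes name HISAT2, featureCounts and Subread, without versions. The genome build is not given in the sources used here. Of 28137 identifiers, 27533 were named from GENCODE M21 (GRCm38). Whole reads were recovered from the FPKM steps for 27051 genes (98.2% of those named, within 0.03 of a read), and 71.0% to 75.6% of values of 1 to 8 reads were even, so mates appear to be counted singly. The recovery was tested on simulated data.

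log2(FPKM + 0.1) was tested with limma 3.58.1 in R 4.3.3 (eBayes with trend) for genes with a mean of at least 0.5 FPKM over the 6 libraries compared, with Benjamini-Hochberg adjustment over all genes. Calls needed an adjusted p under 0.05. The methods of the study name DESeq2, which needs counts, so it was not used. Fold changes are on the log2(FPKM + 0.1) scale, which understates the change of low genes. Single genes under the filter were compared in FPKM by exact permutation, two-sided. SD is over the 3 libraries of a group and SE is that of limma, so both hold the spread between libraries, which may be technical.

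Members, lists and tests were chosen with earlier results of these data known. Named genes were Sfrp2, Rab6a, the 3 highest members of each class, the called members that rose or fell most, 5 each way (or, with none called, the 3 smallest p in each direction), 3 testis members, 6 factors of histone mRNA (Slbp, Npat, Casp8ap2, Lsm10, Lsm11 and Zfp473) and the 3 highest and 3 lowest called genes of each list. Alternatives were other pseudocounts, filters, normalizations, fits, corrections and left-out libraries. Same-numbered libraries did not deviate together (correlations of deviations from the group means from -0.085 to 0.048 over 9 pairs). Stem-loops were searched in GENCODE M21 transcripts. Python 3.11.15 with pandas 2.3.3, numpy 2.4.6, scipy 1.17.1 and matplotlib 3.10.9 was used for the other steps.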

Additional observations from a re-analysis of the deposited data

How the results depend on the processing

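Each result was recomputed under 18 alternatives. In RAB6A siRNA against NC siRNA, the number of histone genes called higher was 6 and ranged from 4 (of 5, with a mean FPKM of at least 1) to 15 with no filter on low values, where 3 were called lower in place of 0. With the replicate block and GC content and length corrected, 1 was called lower, Hist1h4i (log2 fold change -0.37, adjusted p = 0.0104). The replicate numbers come from the titles alone, and the replicate block by itself called 6 higher and 0 lower. In RAB6A siRNA against SFRP2 siRNA the count of 6 ranged from 4 with a mean FPKM of at least 1 to 15 with no filter. In SFRP2 siRNA against NC siRNA the count was 0 throughout. Hist1h1c stayed between 2.14 and 2.46 and Hist1h2bc between 1.76 and 2.10, on the log2 scale, whereas Hist1h4n ranged from 0.97 to 2.14, Hist2h3c2 from 0.71 to 2.20, Hist1h2bg from 0.66 to 1.78 and Hist2h2be from 0.51 to 0.91. These 4 had an adjusted p of at most 0.0285 wherever they passed the filter. Hist1h4n, Hist2h3c2 and Hist1h2bg passed it through the RAB6A siRNA libraries, so their p-values there depend on the difference that let them in. The median log2 fold change of the histone genes past the filter in RAB6A siRNA against NC siRNA was 1.65. It was 0.68 with a pseudocount of 1, 1.89 with 0.01, 0.53 with no filter, 1.93 with a mean FPKM of at least 1, 1.01 with quantile normalization, 0.94 with GC content and length corrected, 0.94 with the replicate block added to that, and 1.88 with voom. Leaving out 1 library gave values from 1.39 (without NC siRNA replicate 3) to 1.76, and 6 histone genes higher each time. The cause was not tested, other than that filters change which genes enter the median and the pseudocount weighs on low genes. Depth limits the members below 0.5 FPKM, which rest on few reads.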
